A study of Mus musculus with 18 samples.

Results

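The 10 genes described here are 9 chemokine ligands, Ccl2, Ccl5, Ccl7, Cxcl1, Cxcl5, Cxcl10, Cxcl12, Cxcl16 and Cx3cl1, and the chemokine scavenger Ackr3. They were taken by symbol, all 10 matched a single mouse Ensembl identifier among the 55487 genes of the deposited count table, and all 10 were among the 13469 genes that passed the filter on low counts. The table holds 18 libraries of im-TEC, conditionally immortalized mouse kidney tubular epithelial cells, in 6 groups of 3 libraries. The groups are TGFβ+SAM (10 ng/mL transforming growth factor β with 0.5 mM S-adenosyl methionine), TGFβ+NAM (10 ng/mL TGFβ with 1 mM nicotinamide), TGFβ (10 ng/mL), SAM (0.5 mM), NAM (1 mM) and untreated control, all for 48 h. TGFβ is a profibrotic cytokine, and NAM and SAM are the substrates of nicotinamide N-methyltransferase, the enzyme the series is about. Cells of every group had been expanded with interferon-γ at a permissive temperature, which keeps the SV40 large T antigen active. Both were withdrawn before the experiment. The model is a single immortalized line in culture, and the labels do not say whether the 3 libraries of a group came from separate cultures, so p-values measure only the spread between these libraries.

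Chemokines are small secreted or membrane-anchored proteins that direct the migration of leukocytes through G protein-coupled receptors. They are named by the spacing of their first cysteines (CC, CXC, CX3C). Injured tubular epithelium is a known source of them, Ccl2 being the best studied there. Interferons and NF-κB are textbook inducers of several of these genes, each acting on its own promoter elements. Ackr3 is an atypical receptor that binds CXCL12 and CXCL11 and carries them into the cell for degradation without G protein signalling.

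The libraries were made with QuantSeq, which reads each transcript near its 3′ end. They held 4171170 to 7717626 reads in genes (median 6336568.5). Levels are in CPM (read counts relative to library size, scaled with TMM factors), fold changes are fitted log2 values ± SE, and a gene was called at a Benjamini-Hochberg adjusted p under 0.05 over all 13469 genes in edgeR's quasi-likelihood test. The SAM and TGFβ+SAM libraries carry library numbers apart from the others. The labels do not say what these numbers stand for, and whatever sets them apart cannot be told apart from SAM in SAM against control, TGFβ+SAM against TGFβ and TGFβ+SAM against control. SAM replicates 2 and 3 bear treatment tags (DIM. and LUN.) that conflict with their titles. On the third principal component of all tested genes (5.2% of the variance), TGFβ+NAM replicate 1 scored 30.4 and NAM replicate 3 scored 31.9, away from the remaining 16 libraries, which scored -20.1 to 14.0. The tubular factors Pax8 and Pax2, the tubular cadherin Cdh16 and the water channel Aqp1 were all expressed, and Epcam had no reads. The summed level of the 9 tubular markers was 776 to 901 CPM over the 9 libraries with TGFβ and 1941 to 2323 CPM over the 9 without it. Of 8 immune markers, Adgre1, Itgam and Cd3e had no reads and Ptprc, the pan-leukocyte marker, had 14 reads in all 18 libraries together. The summed level of the immune list, carried by Csf1r and Cd68, was 78.7 to 93.6 CPM in TGFβ+SAM, 45.7 to 59.0 in TGFβ+NAM, 55.8 to 73.8 in TGFβ, 114 to 132 in SAM, 72.1 to 94.8 in NAM and 101 to 103 in control. Of 5 fibroblast markers, Lum had no reads and Pdgfra, Dcn and Pdgfrb had 3, 9 and 137 in all 18 libraries together. Pdgfrb was higher in TGFβ than in control, by 4.24 ± 1.19 (adjusted p = 0.00817). In TGFβ+NAM against NAM it did not pass (adjusted p = 0.0814). The summed level of the fibroblast list, carried by Col1a1, was 37.8 to 114 CPM with TGFβ and 1.21 to 7.11 CPM without it. The endothelial markers Cdh5 and Kdr had no reads. The part of these marker levels in the chemokine results was not tested, and in bulk RNA fewer expressing cells and less RNA per cell cannot be told apart.

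The sequences just upstream of 3 genes are shown because these genes behaved differently under TGFβ: Cxcl10 was higher, Cxcl1 was lower and Ackr3 had the largest change of the 10. RefSeq's promoter table for GRCm38.p6 held 5 of the 10 genes (Ackr3, Cxcl1, Cxcl10, Cxcl12 and Cx3cl1). Each line gives the 250 bases before the transcription start site, 5′ to 3′ on the gene's strand. Cxcl10 lies on the minus strand at chr5:92348890-92349139, Cxcl1 on the plus strand at chr5:90890995-90891244 and Ackr3 on the plus strand at chr1:90203730-90203979. Capitals mark matches, on either strand, to the interferon-stimulated response element (ISRE, here GAAA, any 2 bases, GAAA) and to the NF-κB consensus (the κB motif).
Cxcl10: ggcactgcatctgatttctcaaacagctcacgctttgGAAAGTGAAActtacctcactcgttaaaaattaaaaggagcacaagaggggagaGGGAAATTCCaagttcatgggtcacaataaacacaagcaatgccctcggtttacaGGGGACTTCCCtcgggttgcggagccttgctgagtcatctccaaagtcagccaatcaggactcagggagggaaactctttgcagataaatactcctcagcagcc
Cxcl1: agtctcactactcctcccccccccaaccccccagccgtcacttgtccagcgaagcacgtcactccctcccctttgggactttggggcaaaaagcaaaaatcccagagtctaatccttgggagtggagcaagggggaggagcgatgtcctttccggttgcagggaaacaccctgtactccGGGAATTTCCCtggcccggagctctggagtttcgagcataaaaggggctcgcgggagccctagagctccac
Ackr3: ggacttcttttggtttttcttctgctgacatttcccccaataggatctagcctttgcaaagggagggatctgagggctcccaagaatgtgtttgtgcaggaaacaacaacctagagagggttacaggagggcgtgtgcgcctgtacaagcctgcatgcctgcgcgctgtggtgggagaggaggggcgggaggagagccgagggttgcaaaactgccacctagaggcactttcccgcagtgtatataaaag
Cxcl10 held an ISRE match beginning at -213 and κB matches beginning at -159 and at -104 and -103, the last pair overlapping each other and the one at -103 matching on both strands. Cxcl1 held overlapping κB matches at -71 and -70 on opposite strands and no ISRE match. In the 250-base windows of all 32851 promoters in the table, 2.98% held the ISRE letters, 7.25% the κB motif and 0.167% the SMAD box GTCTAGAC. None of the 3 motifs matched in the windows of Ackr3, Cxcl12 or Cx3cl1, and no SMAD box matched in the windows of Cxcl10 or Cxcl1. These matches describe letters only.

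**Figure D1:**
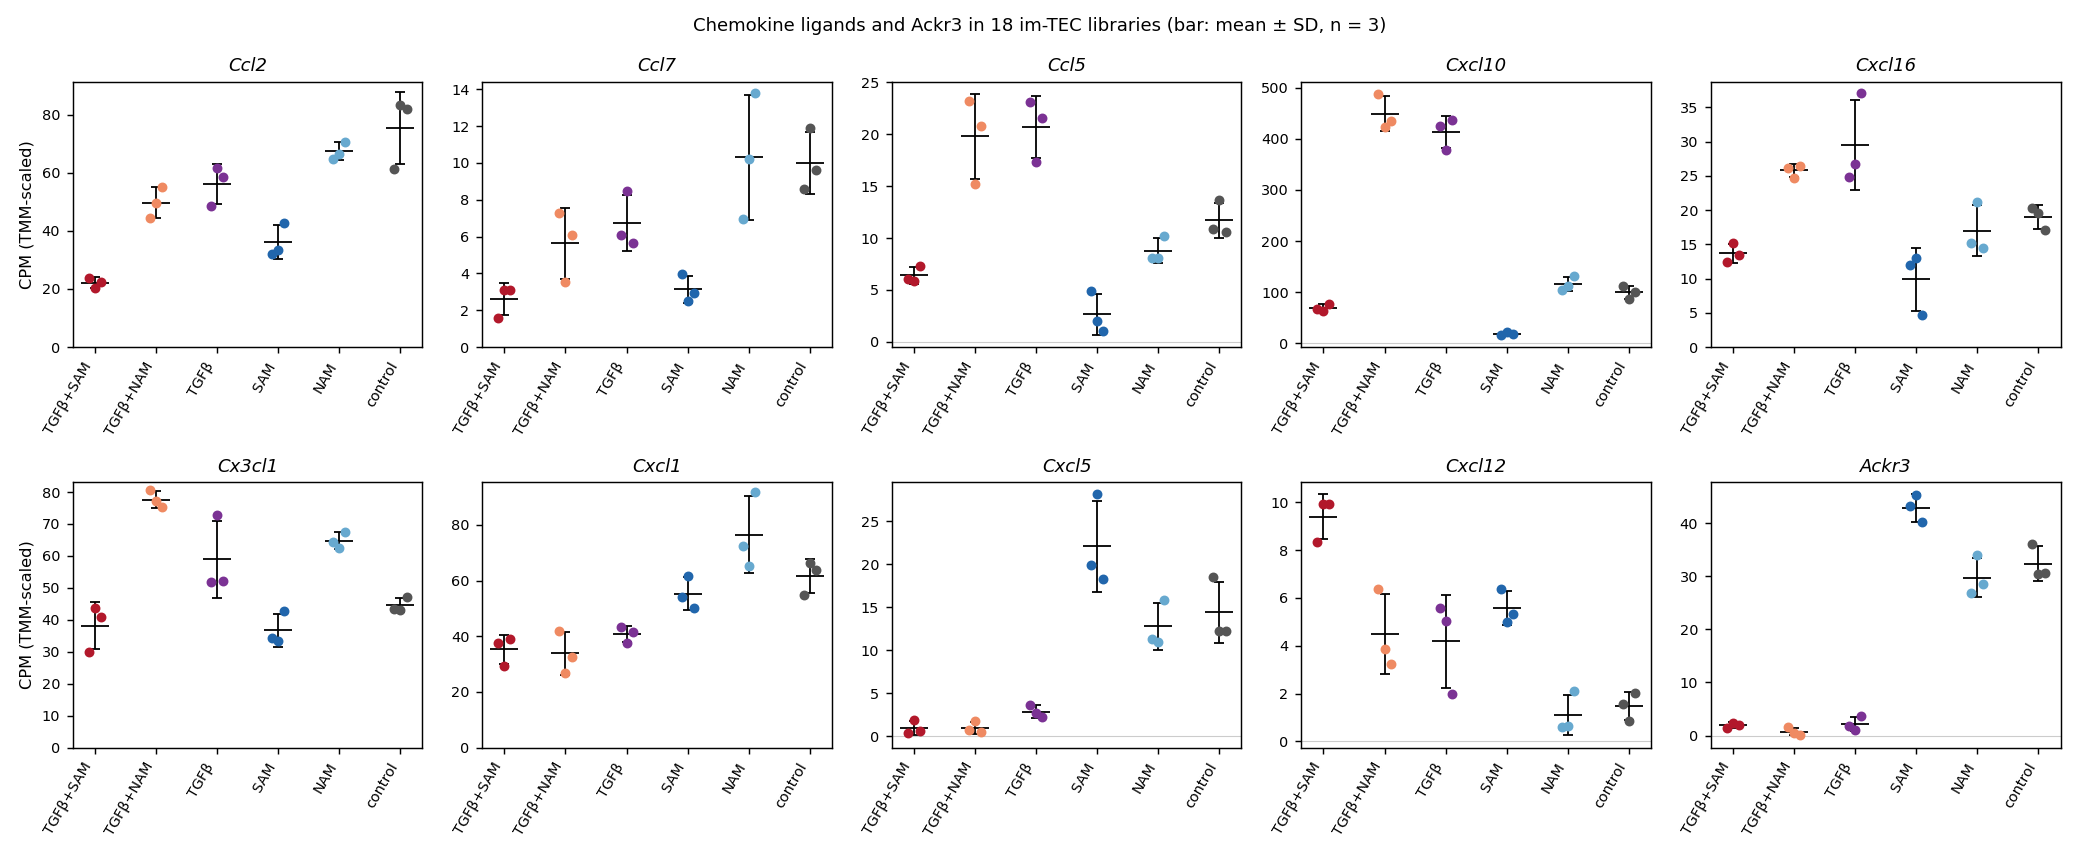
Level of each gene in all 18 libraries, in TMM-scaled CPM on linear axes that differ between panels (points, libraries; bars, mean ± SD, n = 3). Cxcl10 reached 379 to 488 CPM with TGFβ or TGFβ+NAM and stayed under 78 CPM in every SAM-treated library, and Ackr3 was under 4 CPM in all 9 TGFβ-treated libraries.

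TGFβ against control gives the response of these genes to the profibrotic cytokine with no supplement. The ligands split. Cxcl10, Ccl5, Cx3cl1 and Cxcl12 were higher, whereas Ccl2, Cxcl1, Cxcl5 and Ackr3 were lower, and Ccl7 and Cxcl16 did not pass. Thus 4 of 10 rose and 4 of 10 fell, where 9.7% of all tested genes rose and 9.74% fell. The median log2 change of the 10 was -0.01 and that of all tested genes 0.01. The calls for Cxcl10, Cxcl1, Cxcl5 and Ackr3 held under every alternative tried, and those for Ccl2, Ccl5, Cx3cl1 and Cxcl12 each ended on leaving out 1 of several libraries.

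Cxcl10, which attracts activated T cells through CXCR3, had 66.3, 63.5 and 77.3 CPM in TGFβ+SAM, 488, 424 and 435 CPM in TGFβ+NAM, 425, 379 and 438 CPM in TGFβ, 16.7, 20.9 and 17.1 CPM in SAM, 105, 112 and 131 CPM in NAM and 112, 87.1 and 100.3 CPM in control. All TGFβ and TGFβ+NAM libraries lay above all control and NAM libraries, and the lowest values were in SAM. TGFβ raised it 4.14-fold over control, a log2 change of 2.05 ± 0.11 (adjusted p = 7.37e-19). The rise was 1.95 ± 0.10 in TGFβ+NAM over NAM and 1.92 ± 0.13 in TGFβ+SAM over SAM, each with an adjusted p of at most 9.03e-16. The TGFβ effect with SAM minus that without was -0.13 ± 0.17 (adjusted p = 0.856), with an approximate 95% interval of -0.46 to 0.20. In the annotation Cxcl10 overlaps Art3 on the opposite strand, which had 25 reads in all libraries together.

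Ccl5, which attracts T cells and macrophages, had 6.02, 5.87 and 7.29 CPM in TGFβ+SAM, 23.2, 15.2 and 20.8 CPM in TGFβ+NAM, 23.1, 17.3 and 21.6 CPM in TGFβ, 4.86, 2.03 and 1.03 CPM in SAM, 8.12, 8.09 and 10.2 CPM in NAM and 10.9, 13.7 and 10.6 CPM in control. The TGFβ libraries lay above the control libraries without overlap, as those of 18.2% of tested genes did. The TGFβ+SAM libraries lay below the control libraries. The log2 change was 0.81 ± 0.28 (adjusted p = 0.0338) in TGFβ over control, 1.16 ± 0.28 (adjusted p = 0.00176) in TGFβ+NAM over NAM and 1.25 ± 0.35 (adjusted p = 0.00511) in TGFβ+SAM over SAM. The call against control ended without control replicates 1 or 3 or TGFβ replicates 1 or 3 (adjusted p = 0.0911 to 0.131). Over SAM it ended without SAM replicate 3, the lowest library, with 0.89 and adjusted p = 0.0594, without SAM replicates 2 and 3, with 0.40 and adjusted p = 0.565 (the change was 2.04 without SAM replicate 1), and with only these groups in the fit (0.0797).

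Cxcl16, a transmembrane ligand of CXCR6 that is also shed, had 12.4, 15.2 and 13.5 CPM in TGFβ+SAM, 26.2, 24.7 and 26.4 CPM in TGFβ+NAM, 24.8, 26.7 and 37.1 CPM in TGFβ, 12.0, 13.0 and 4.66 CPM in SAM, 15.2, 21.2 and 14.5 CPM in NAM and 20.3, 19.6 and 17.1 CPM in control. The TGFβ libraries lay above the control libraries without overlap, as 18.2% of tested genes did. With 0.62 ± 0.23 (adjusted p = 0.0502) in TGFβ against control it missed the threshold narrowly, and 4 of the alternatives that kept all of the TGFβ and control libraries put it at 0.00957 to 0.0494, as did the fit without TGFβ replicate 1 (0.0428). In TGFβ+NAM against NAM it was 0.60 ± 0.23 (adjusted p = 0.0579), called without NAM replicate 2 (0.0267) and with only these groups in the fit (0.0384), and in TGFβ+SAM against SAM 0.46 ± 0.25 (adjusted p = 0.179). Zmynd15, which overlaps Cxcl16 on the opposite strand, had 79 reads in all libraries.

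Cx3cl1, the membrane-bound ligand of CX3CR1, had 29.9, 43.7 and 41.0 CPM in TGFβ+SAM, 80.5, 77.1 and 75.2 CPM in TGFβ+NAM, 51.7, 72.7 and 52.1 CPM in TGFβ, 34.2, 33.3 and 42.8 CPM in SAM, 64.3, 62.4 and 67.6 CPM in NAM and 43.3, 43.2 and 47.0 CPM in control. TGFβ replicate 2 stood above the other TGFβ libraries. The change in TGFβ over control was 0.41 ± 0.14 (adjusted p = 0.036). It ended without TGFβ replicate 2, at 0.22 and adjusted p = 0.385, without any control library (0.0604 to 0.111), with library totals as the scaling (0.0622) and in DESeq2 (0.0504). With a supplement it did not pass, at 0.26 ± 0.14 (adjusted p = 0.192) in TGFβ+NAM against NAM and 0.06 ± 0.15 (adjusted p = 0.806) in TGFβ+SAM against SAM.

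Ccl2 and Ccl7 attract monocytes through CCR2 and lie next to each other on chromosome 11 (Ccl2 at 82035571 to 82037453, Ccl7 at 82045712 to 82047525, plus strand, GRCm38). Ccl2 had 23.9, 20.2 and 22.3 CPM in TGFβ+SAM, 44.5, 49.7 and 55.3 CPM in TGFβ+NAM, 48.5, 61.6 and 58.7 CPM in TGFβ, 32.2, 33.3 and 42.8 CPM in SAM, 64.8, 66.4 and 70.8 CPM in NAM and 61.3, 83.5 and 81.9 CPM in control. The TGFβ and control libraries overlapped only in that TGFβ replicate 2 was just above control replicate 1, the lowest control library. Ccl2 changed by -0.42 ± 0.14 (adjusted p = 0.0243) in TGFβ against control, -0.44 ± 0.14 (adjusted p = 0.0188) in TGFβ+NAM against NAM and -0.70 ± 0.15 (adjusted p = 0.000393) in TGFβ+SAM against SAM. The call against control ended without control replicates 2 or 3 or TGFβ replicate 1 (adjusted p = 0.117 to 0.169). That against NAM ended without NAM replicate 3, TGFβ+NAM replicate 1 or TGFβ+NAM replicate 2 (0.0564 to 0.0933) and without the first pair together (0.185), and that against SAM without SAM replicates 2 and 3 (0.0747).

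Ccl7 had 1.59, 3.10 and 3.10 CPM in TGFβ+SAM, 7.27, 3.53 and 6.10 CPM in TGFβ+NAM, 6.07, 8.48 and 5.65 CPM in TGFβ, 3.95, 2.50 and 2.93 CPM in SAM, 6.96, 10.2 and 13.8 CPM in NAM and 8.60, 11.9 and 9.63 CPM in control. It did not pass in any comparison of TGFβ-treated cells on the same supplement, at -0.56 ± 0.35 against control, -0.88 ± 0.35 against NAM and -0.26 ± 0.41 against SAM (adjusted p = 0.299, 0.0712 and 0.697). Against NAM it was called without NAM replicate 1 (0.0405) or TGFβ+NAM replicate 1 (0.0464). The interval was -1.06 to 0.55 for TGFβ+SAM against SAM and -1.25 to 0.12 for TGFβ against control.

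Cxcl1 and Cxcl5 attract neutrophils through CXCR2. Cxcl1 had 37.4, 29.4 and 39.1 CPM in TGFβ+SAM, 42.0, 26.8 and 32.5 CPM in TGFβ+NAM, 43.3, 37.6 and 41.5 CPM in TGFβ, 54.1, 61.7 and 50.2 CPM in SAM, 72.4, 65.1 and 92.0 CPM in NAM and 54.8, 66.2 and 63.7 CPM in control. Every TGFβ-treated library was below every library without TGFβ. Its log2 change was -0.59 ± 0.15 in TGFβ against control (adjusted p = 0.00348), with -1.18 ± 0.15 (adjusted p = 6.73e-08) in TGFβ+NAM against NAM and -0.65 ± 0.15 (adjusted p = 0.00105) in TGFβ+SAM against SAM. 

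Cxcl5 had 0.354, 1.96 and 0.621 CPM in TGFβ+SAM, 0.709, 1.76 and 0.538 CPM in TGFβ+NAM, 3.71, 2.67 and 2.21 CPM in TGFβ, 19.9, 28.1 and 18.3 CPM in SAM, 11.3, 11.0 and 15.9 CPM in NAM and 18.5, 12.3 and 12.3 CPM in control. Every TGFβ-treated library was below 4 CPM and every library without TGFβ above 10 CPM. The change was -2.30 ± 0.36 (adjusted p = 3.76e-06) in TGFβ against control, -3.61 ± 0.42 (adjusted p = 5.24e-09) in TGFβ+NAM against NAM and -4.46 ± 0.41 (adjusted p = 1.14e-11) in TGFβ+SAM against SAM. Without TGFβ+SAM replicate 2, the highest of its group, the change against SAM was -5.42, and without TGFβ+NAM replicate 2 that against NAM was -4.31. Cxcl5 rests on 18 reads in TGFβ+SAM, 18 in TGFβ+NAM and 48 in TGFβ, so levels among the TGFβ-treated groups are weakly determined. Of the 10 genes, Cxcl5 alone passed a test of the TGFβ effect with SAM minus the effect without it, at -2.16 ± 0.57 (adjusted p = 0.0402), where 1.43% of all tested genes passed in either direction. That call ended without SAM replicates 2 and 3 (adjusted p = 0.234) and on leaving out any of 8 of the 12 libraries concerned (0.0589 to 0.172), and the difference was -3.12 without TGFβ+SAM replicate 2.

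Cxcl12, the ligand of CXCR4 and of the scavenger Ackr3, had few reads without TGFβ or SAM, 24 in NAM and 29 in control. It had 8.33, 9.95 and 9.93 CPM in TGFβ+SAM, 6.38, 3.85 and 3.23 CPM in TGFβ+NAM, 5.56, 5.03 and 1.97 CPM in TGFβ, 6.38, 5.00 and 5.34 CPM in SAM, 0.58, 0.642 and 2.09 CPM in NAM and 1.55, 0.858 and 2.03 CPM in control. TGFβ replicate 3 overlapped the control libraries. Cxcl12 rose by 1.53 ± 0.51 (adjusted p = 0.0279) in TGFβ over control and by 2.00 ± 0.52 (adjusted p = 0.00348) in TGFβ+NAM over NAM, and the value in TGFβ+SAM over SAM was 0.75 ± 0.44 (adjusted p = 0.214). The value over NAM was 2.83 without NAM replicate 3. The call over control ended without control replicates 1 or 2 or TGFβ replicates 1 or 2 (adjusted p = 0.0652 to 0.142). With so few reads the size of its change is poorly fixed, with an interval of 0.53 to 2.54 against control.

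Ackr3 had 1.42, 2.45 and 2.02 CPM in TGFβ+SAM, 1.60, 0.481 and 0.179 CPM in TGFβ+NAM, 1.85, 1.10 and 3.69 CPM in TGFβ, 43.3, 45.3 and 40.2 CPM in SAM, 26.8, 34.0 and 28.6 CPM in NAM and 36.2, 30.5 and 30.6 CPM in control. The 9 libraries with TGFβ lay far below the 9 without it, with no overlap. Ackr3 was 15.6-fold lower in TGFβ than in control, a log2 change of -3.97 ± 0.30 (adjusted p = 7.42e-14). It changed by -5.29 ± 0.35 (adjusted p = 1.08e-15) in TGFβ+NAM against NAM and by -4.43 ± 0.29 (adjusted p = 8.14e-16) in TGFβ+SAM against SAM. Without TGFβ+NAM replicate 1, the highest of its group, the change against NAM was -6.38. The TGFβ-treated groups held only 36, 13 and 33 reads (TGFβ+SAM, TGFβ+NAM and TGFβ), too few to rank these groups against each other. In SAM, Ackr3 and its ligand Cxcl12 were both at or above their control levels, with Ackr3 at 42.9 ± 2.59 CPM in SAM and 32.4 ± 3.29 CPM in control and Cxcl12 at 5.57 ± 0.717 CPM in SAM and 1.48 ± 0.588 CPM in control (SD, n = 3 each).

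**Figure D2:**
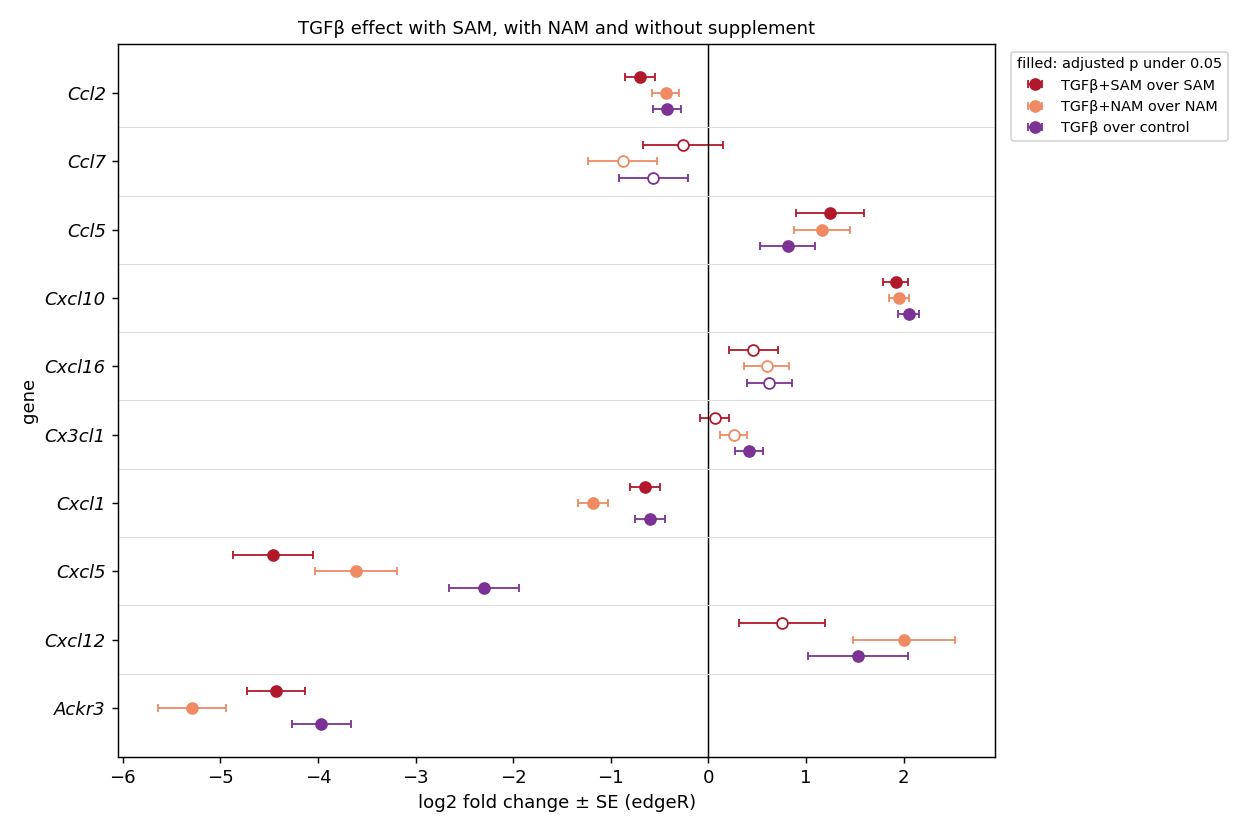
Fitted log2 fold change ± SE of each gene for TGFβ+SAM over SAM, TGFβ+NAM over NAM and TGFβ over control (filled points, adjusted p under 0.05). Cxcl10 and Ccl5 lie right of 0 and Ccl2, Cxcl1, Cxcl5 and Ackr3 left of 0 in all 3, all of them filled.

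Side by side, 4 of the 10 genes rose and 4 fell in TGFβ against control. In TGFβ+NAM against NAM, 3 rose (Ccl5, Cxcl10 and Cxcl12) and 4 fell, where 10.9% of all tested genes rose and 11% fell. In TGFβ+SAM against SAM, 2 rose (Ccl5 and Cxcl10) and 4 fell, where 14.2% rose and 14.2% fell. Ccl2, Cxcl1, Cxcl5 and Ackr3 were the 4 that fell in each. None of the 10 passed the test of the TGFβ effect with NAM minus that without it (edgeR), where 0% of all tested genes passed. At an unadjusted p under 0.05 there were 3 of the 10 (Cxcl1, Cxcl5 and Ackr3, each more negative with NAM) and 462 of all genes, and DESeq2 called 0 of the 10.

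The comparisons with SAM ask what this methyl donor does to the same genes with and without TGFβ. With TGFβ, 7 of the 10 genes were lower and 0 higher in TGFβ+SAM than in TGFβ, where 4.25% of all tested genes were lower and 3.07% higher. Without TGFβ, 5 of 10 were lower and 1, Cxcl12, was higher in SAM than in control, where 6.79% were lower and 5.02% higher. The median log2 change of the 10 was -1.22 with TGFβ and -0.60 without it, against -0.01 and 0.00 over all tested genes. Ccl2, Ccl5, Ccl7, Cxcl10 and Cxcl16 were lower in both. Each of these comparisons is between libraries from different runs of library numbers, whose part was not tested.

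Cxcl10 averaged 69.0 ± 7.31 CPM in TGFβ+SAM and 414 ± 30.9 CPM in TGFβ (SD, n = 3 each), 5.99-fold lower in TGFβ+SAM, with a log2 change of -2.58 ± 0.11 (adjusted p = 6e-21). It averaged 18.2 ± 2.35 CPM in SAM and 99.9 ± 12.6 CPM in control, with -2.45 ± 0.12 (adjusted p = 4.75e-18). With both agents it stayed below untreated cells, at -0.53 ± 0.11 (adjusted p = 0.000203) in TGFβ+SAM against control, the TGFβ+SAM libraries all lying under the control libraries.

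The log2 change of Ccl5 was -1.68 ± 0.29 (adjusted p = 0.0001) in TGFβ+SAM against TGFβ and -2.12 ± 0.33 (adjusted p = 9.74e-06) in SAM against control. The SAM libraries spread from 1.03 to 4.86 CPM, on 51 reads together, and with SAM replicate 1 alone the change against control was -1.27 (adjusted p = 0.0588), and without SAM replicate 1 it was -2.91. Cxcl16 gave -1.10 ± 0.24 (adjusted p = 0.00177) in TGFβ+SAM against TGFβ and -0.93 ± 0.24 (adjusted p = 0.00808) in SAM against control. The call against control rests on SAM replicate 3, the lowest library at 4.66 CPM, without which it was -0.61 (adjusted p = 0.106), and it also ended without SAM replicates 2 and 3 (0.261).

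Among the monocyte attractants, Ccl2 averaged 22.2 ± 1.85 CPM in TGFβ+SAM and 56.3 ± 6.86 CPM in TGFβ, and 36.1 ± 5.81 CPM in SAM and 75.6 ± 12.4 CPM in control (SD, n = 3 each). No library of a SAM-treated group reached its counterpart without SAM. The changes were -1.34 ± 0.15 (adjusted p = 1.13e-08) with TGFβ and -1.07 ± 0.14 (adjusted p = 4.79e-07) without it. Ccl7 had 48 reads in TGFβ+SAM, 113 in TGFβ, 59 in SAM and 201 in control. It changed by -1.37 ± 0.39 (adjusted p = 0.0234) with TGFβ and -1.67 ± 0.37 (adjusted p = 0.00169) without it. The first call ended without TGFβ replicate 2 (0.121) or TGFβ+SAM replicate 1 (0.126) and with only these groups in the fit (0.0701), and the second without SAM replicates 2 and 3 (0.17).

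The remaining genes did not share a direction. Cx3cl1 was lower with TGFβ, at -0.63 ± 0.14 (adjusted p = 0.00361), a call that ended without TGFβ replicate 2 (0.0871) or TGFβ+SAM replicate 1 (0.0573), and did not pass without TGFβ, at -0.28 ± 0.15 (adjusted p = 0.241). The neutrophil attractant Cxcl1 did not pass in either, at -0.21 ± 0.16 (adjusted p = 0.502) and -0.15 ± 0.15 (adjusted p = 0.584), with intervals of -0.52 to 0.10 and -0.44 to 0.14. Its partner Cxcl5 changed by -1.54 ± 0.48 (adjusted p = 0.0426) in TGFβ+SAM against TGFβ, on 18 against 48 reads, which ended without any of 5 of the 6 libraries (0.0511 to 0.205) and with only these groups in the fit (0.198). Without the remaining library, TGFβ+SAM replicate 2, the change was -2.51. In SAM against control Cxcl5 had 0.62 ± 0.30 (adjusted p = 0.197), called only with these groups alone in the fit (0.0349). Cxcl12 was higher in SAM than in control, by 1.92 ± 0.50 (adjusted p = 0.0079), not called without control replicate 2 (0.0629) or without SAM replicates 2 and 3 (0.0574), and had 1.13 ± 0.45 (adjusted p = 0.128) in TGFβ+SAM against TGFβ. Ackr3 had 0.41 ± 0.21 (adjusted p = 0.249) in SAM against control, where the SAM libraries lay above the control libraries, as those of 15.4% of tested genes did, and a fit of these groups alone called it (0.0416), and -0.06 ± 0.41 (adjusted p = 0.961) in TGFβ+SAM against TGFβ.

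In TGFβ+SAM against control, 7 of the 10 genes were lower (Ccl2, Ccl5, Ccl7, Cxcl1, Cxcl5, Cxcl10 and Ackr3) and 1, Cxcl12, was higher, where 14.1% of all tested genes were lower and 12.5% higher. These groups also differ in their run of library numbers. Cxcl12 had its highest level of any group there, 9.40 ± 0.932 CPM in TGFβ+SAM against 1.48 ± 0.588 CPM in control (SD, n = 3 each), a log2 change of 2.67 ± 0.50 (adjusted p = 4.84e-05). Ccl2 was 3.41-fold lower, with -1.77 ± 0.15 (adjusted p = 1.24e-12). Ccl5 gave -0.87 ± 0.30 (adjusted p = 0.0253), a call that ended without control replicate 2 or TGFβ+SAM replicates 1 or 2 (0.0713 to 0.113).

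**Figure D3:**
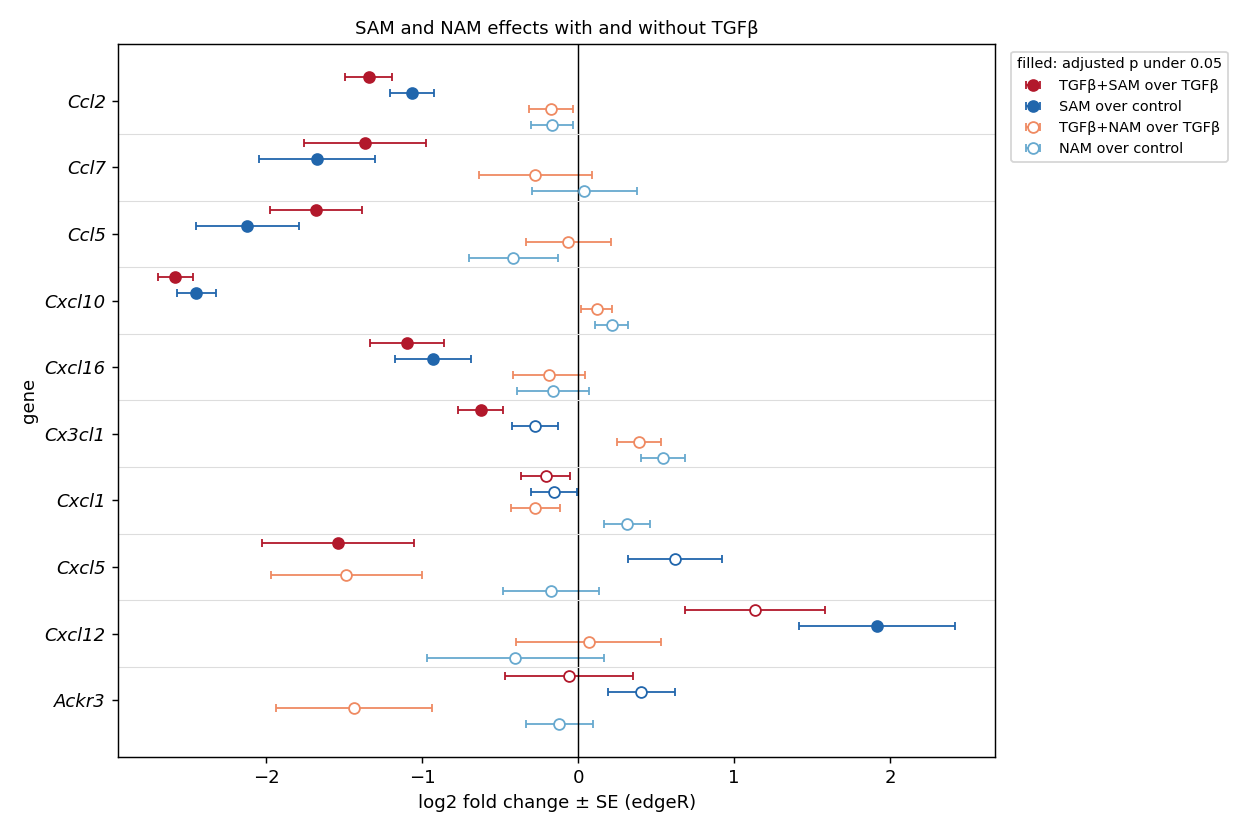
Fitted log2 fold change ± SE of each gene for TGFβ+SAM over TGFβ, SAM over control, TGFβ+NAM over TGFβ and NAM over control (filled points, adjusted p under 0.05). SAM points of Cxcl10 lie at -2.58 and -2.45, those of Ccl2, Ccl5, Ccl7 and Cxcl16 are filled and left of 0, and no NAM point is filled.

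NAM changed none of the 10 genes past the threshold. In edgeR, 0 of 10 were called in TGFβ+NAM against TGFβ and 0 of 10 in NAM against control. Of all tested genes, 0.0817% and 0.00742% were called. The edgeR count was also 0 in each without TGFβ+NAM replicate 1 and NAM replicate 3. DESeq2 called 0 of 10 in each, but gave an adjusted p to only 6444 genes with TGFβ and 1582 without it. A gene without an adjusted p counts there as not called. At an unadjusted p under 0.05 there were 3 of the 10 in each comparison, beside 932 and 722 of all genes. Cx3cl1 was among the 3 in both, with 77.6 ± 2.70 CPM in TGFβ+NAM and 58.9 ± 12.0 CPM in TGFβ, and 64.8 ± 2.64 CPM in NAM and 44.5 ± 2.16 CPM in control (SD, n = 3 each). Its libraries with NAM lay above those without NAM in both comparisons, as 6.02% and 7.14% of tested genes did, with 0.39 ± 0.14 (adjusted p = 0.463) and 0.54 ± 0.14 (adjusted p = 0.417). The others were Cxcl5 and Ackr3 with TGFβ, at -1.49 ± 0.49 (adjusted p = 0.415) and -1.44 ± 0.50 (adjusted p = 0.442), both on few reads, and Cxcl1 and Cxcl10 without it, at 0.31 ± 0.15 (adjusted p = 0.909) and 0.21 ± 0.11 (adjusted p = 0.909). For Cxcl10 the interval of the NAM effect was -0.08 to 0.31 with TGFβ and 0.01 to 0.42 without it. For Ccl2 it was -0.45 to 0.10 and -0.43 to 0.10.

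Other chemokine ligands were few in these cells. Of 18 further CC ligands, 8 had any read and 4 passed the filter (Ccl17, Ccl20, Ccl25 and Ccl27a). Of 11 further CXC and XC ligands, 8 had reads and 3 passed (Cxcl11, Cxcl14 and Ppbp). In TGFβ against control, 1 of the 4 and 1 of the 3 were higher and none lower, where 9.7% of all tested genes were higher. In SAM against control, 1 of the 4 and 1 of the 3 were lower and none higher, where 6.79% of all tested genes were lower. Cxcl9, which shares CXCR3 with Cxcl10, had 12 reads in all and the CXCR2 ligands Cxcl2 and Cxcl3 had 20 and 4, too low to judge.

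Cxcl11, which binds both CXCR3 and Ackr3, had 0.354, 0.489 and 1.55 CPM in TGFβ+SAM, 3.72, 9.29 and 6.28 CPM in TGFβ+NAM, 9.77, 14.9 and 15.0 CPM in TGFβ, 1.21, 0 and 0 CPM in SAM, 9.28, 4.37 and 4.60 CPM in NAM and 10.7, 4.72 and 5.07 CPM in control. It was lower with SAM on both backgrounds, at -3.98 ± 0.59 (adjusted p = 5.44e-06) in TGFβ+SAM against TGFβ and -3.96 ± 0.66 (adjusted p = 3.29e-05) in SAM against control, on 15 and 8 reads in the SAM-treated groups. SAM replicates 2 and 3, whose tags conflict with their titles, held no Cxcl11 read. Neither call was checked with libraries left out. TGFβ itself left Cxcl11 at 0.94 ± 0.46 (adjusted p = 0.165). Ppbp, a platelet chemokine, averaged 15.8 ± 5.54 CPM in TGFβ+SAM, 12.3 ± 1.76 CPM in TGFβ+NAM, 18.2 ± 5.01 CPM in TGFβ, 3.76 ± 0.662 CPM in SAM, 4.18 ± 0.876 CPM in NAM and 6.03 ± 1.22 CPM in control (SD, n = 3) and rose with TGFβ by 1.58 ± 0.29 (adjusted p = 6.29e-05).

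Ccl17, which attracts T cells through CCR4, averaged 32.4 ± 4.24 CPM in TGFβ+SAM, 47.1 ± 3.00 CPM in TGFβ+NAM, 39.5 ± 1.17 CPM in TGFβ, 5.13 ± 1.08 CPM in SAM, 24.7 ± 3.74 CPM in NAM and 24.8 ± 6.58 CPM in control (SD, n = 3). It was lower with SAM in the absence of TGFβ, at -2.25 ± 0.21 (adjusted p = 2.53e-10), and did not pass with TGFβ, at -0.28 ± 0.18 (adjusted p = 0.39). TGFβ raised it by 2.65 ± 0.21 over SAM and by 0.68 ± 0.18 over control, and the difference of these effects passed, at 1.97 ± 0.28 (adjusted p = 1.21e-05). None of the Ccl17 calls was checked with libraries left out.

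Receptors for these ligands had few reads. Of 18 signalling chemokine receptors, 13 had no read in any library, among them Ccr2, Cxcr2, Cxcr3, Cxcr4 and Cxcr6. Only Cx3cr1 passed the filter, on 108 reads in all 18 libraries, and was not called, at 1.29 ± 0.96 (adjusted p = 0.405) in TGFβ against control and -0.80 ± 1.06 (adjusted p = 0.704) in SAM against control. Of the other atypical receptors, Ackr1 and Ackr2 had no read, Ackr4 had 14 reads, and Ccrl2, with 184, had 0.24 ± 0.71 (adjusted p = 0.873) in TGFβ against control and passed in TGFβ+SAM against SAM, at -2.33 ± 0.82 (adjusted p = 0.0292). Ackr3 had 651 reads in the control libraries alone.

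Among 7 genes of chemokine processing, 6 were tested, and 3 were higher and 1 lower in TGFβ against control, where 9.7% of all tested genes were higher and 9.74% lower, shares that also apply to the other lists in this comparison. The sheddases Adam10 and Adam17, which release Cx3cl1 and Cxcl16 from the membrane, averaged 68.8 ± 4.09 CPM in TGFβ and 62.1 ± 9.75 CPM in control, and 54.5 ± 3.27 CPM in TGFβ and 65.9 ± 0.982 CPM in control (SD, n = 3 each), and neither passed. The gelatinase Mmp9 rose by 3.38 ± 0.39 (adjusted p = 6.9e-09), Mmp14 by 1.05 ± 0.10 (adjusted p = 3.09e-11) and Mmp2 by 0.77 ± 0.11 (adjusted p = 1.37e-06), and the aminopeptidase Anpep fell to 1.64 ± 0.973 CPM in TGFβ, against 8.69 ± 1.53 CPM in control. Dpp4, which trims several CXC ligands, had no read. Of 8 genes for proteoglycans that hold chemokines at the cell surface and their synthesis, 3 were higher and 1 lower with TGFβ, with Gpc1 at 0.69 ± 0.09 (adjusted p = 8.48e-08) and Sdc4 at -0.73 ± 0.11 (adjusted p = 1.44e-06). Of 5 tested arrestins and receptor kinases, which act in receptor internalization, 1 was lower, Arrb1, at -1.22 ± 0.26 (adjusted p = 0.000443).

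Transcription factors that bind such promoter elements were also listed. Of 9 IRF and STAT factors, 5 were higher and 0 lower in TGFβ against control, 0 higher and 6 lower in TGFβ+SAM against TGFβ, and 0 higher and 4 lower in SAM against control. Of all tested genes, 9.7% were higher and 9.74% lower in TGFβ against control, 3.07% and 4.25% in TGFβ+SAM against TGFβ, and 5.02% and 6.79% in SAM against control. The median log2 changes of the 9 were 0.67, -0.94 and -0.49, beside 0.01, -0.01 and 0.00 over all tested genes. Irf7, an interferon-induced factor, averaged 10.4 ± 1.47 CPM in TGFβ+SAM, 78.0 ± 9.09 CPM in TGFβ+NAM, 91.9 ± 0.864 CPM in TGFβ, 5.10 ± 2.12 CPM in SAM, 27.8 ± 3.43 CPM in NAM and 27.4 ± 9.12 CPM in control (SD, n = 3). Stat2, which acts downstream of type I interferons, changed by 1.38 ± 0.16 (adjusted p = 8.27e-09) in TGFβ against control, -1.62 ± 0.17 (adjusted p = 9.46e-10) in TGFβ+SAM against TGFβ and -0.60 ± 0.17 (adjusted p = 0.0162) in SAM against control. Of 10 NF-κB factors and feedback genes, 1 was higher in TGFβ against control (Tnfaip3, adjusted p = 0.0339), 1 was lower in TGFβ+SAM against TGFβ (Nfkbie, -1.15 ± 0.33) and 1 was higher and 3 lower in SAM against control, and their medians were 0.12, -0.12 and -0.20 beside the same all-gene shares and medians. Nfkbia, a feedback inhibitor, had -0.41 ± 0.09 (adjusted p = 0.00199) in SAM against control. The part of either group of factors in the chemokine levels was not tested.

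**Figure D4:**
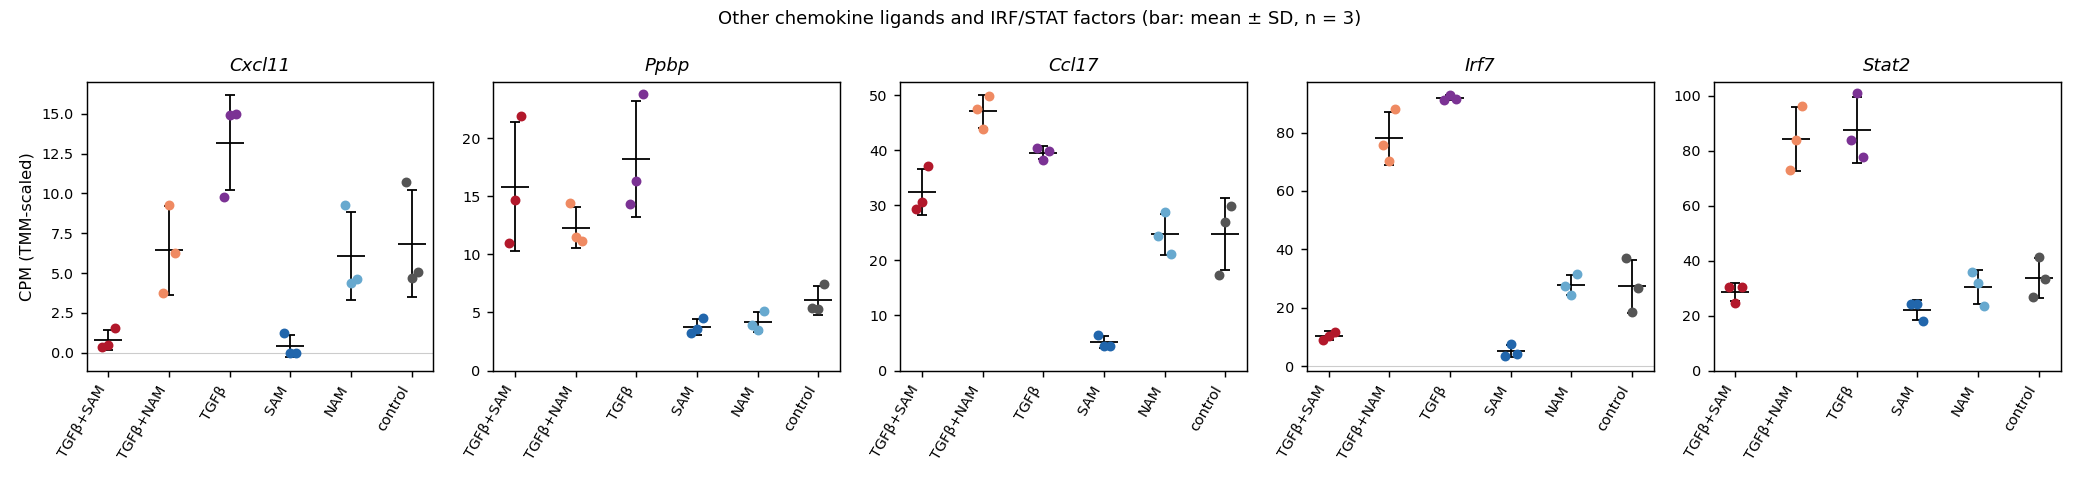
Level of 3 further chemokine ligands and 2 transcription factors in all 18 libraries, in TMM-scaled CPM on linear axes that differ between panels (points, libraries; bars, mean ± SD, n = 3). Irf7 and Stat2 are highest with TGFβ and TGFβ+NAM, and Ccl17 averages 5.13 CPM in SAM against 24.8 CPM in control.

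As a description over the 18 libraries, which share 6 treatment groups, each of the 10 genes was set against the 9684 named genes of at least 5 CPM by Pearson's r of log2 CPM. The closest to Cxcl10 were the interferon-induced genes Oasl2 (0.988), Ifit1 (0.987) and Rtp4 (0.982). The closest to Ccl5 were Ifi47 (0.951), Anxa1 (0.948) and Gbp2 (0.947), and Ifi47 was also among the 3 closest to Cxcl16 (0.918), after Trmt6 (0.92). For Ccl2 they were Neat1 (0.967), Tuba4a (0.911) and Anxa5 (0.91), and for Ccl7 Nnmt (0.92), S100a6 (0.918) and H3f3b (0.914). For Ackr3 they were the cyclin Ccnd1 (0.978), Fam69b (0.976) and Ank3 (0.971), for Cxcl5 Cdkl1 (0.969), Rbm47 (0.969) and Pbx3 (0.963), and for Cxcl1 Cd9 (0.946), Podxl (0.935) and Chka (0.933). Cxcl12 was closest to Axl (0.933), Rbm38 (0.898) and Fosl2 (0.896) and Cx3cl1 to Zfand3 (0.906), Piezo1 (0.887) and Saraf (0.886). The libraries share their groups and depth, and these values carry no test.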

How the data were processed

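RNA of 18 im-TEC libraries was measured. The authors deposited raw counts of reads per gene and library, made with STAR and HTSeq per the submitters' processing notes, which give no versions and name the build GRCh38, although all identifiers are mouse. For strand setting and annotation, the sources used here give nothing. Of the 55487 identifiers, 55141 had a symbol in GENCODE M21 (GRCm38), whose coordinates are used. Reads outside genes (22.8% to 28.2%) and ambiguous reads (0.607% to 0.779%) were left out.

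Counts were fitted in edgeR 4.0.16 (R 4.3.3) with TMM factors, filterByExpr (minimum count 10) and a term per group over all 18 libraries. Contrasts were tested with two-sided quasi-likelihood F tests, and approximate 95% intervals were taken from the SE. The code was tested on simulated data. Alternatives were DESeq2 1.42.0, other scaling, no filter, only the groups compared, a replicate block, and leaving out libraries. Calls of single genes outside the 10 were not checked under these alternatives. Genes and gene lists were chosen with earlier results of these data known. All 10 genes are described throughout. Of other lists, at most 4 called genes were named by smallest p, beside receptors, and some listed genes are not reported here. Ccl17, Cxcl11 and Ppbp are named as called genes, and the 3 named genes with the highest Pearson's r were listed for each of the 10. Adam10, Adam17, Nfkbie, Cxcl2, Cxcl3, Cxcl9 and genes without reads were added after their values were seen.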

Additional observations from a re-analysis of the deposited data

Results flagged for a closer look

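Cxcl5 is listed because its TGFβ effect differed with SAM. The log2 change was -4.46 ± 0.41 in TGFβ+SAM against SAM and -2.30 ± 0.36 in TGFβ against control, a difference of -2.16 ± 0.57 (edgeR adjusted p = 0.0402). The call ended without SAM replicates 2 and 3 (0.234) and on leaving out any of 8 of the 12 libraries (0.0589 to 0.172). Cxcl5 averaged 0.978 ± 0.859 CPM in TGFβ+SAM, 2.86 ± 0.766 CPM in TGFβ, 22.1 ± 5.29 CPM in SAM and 14.4 ± 3.55 CPM in control (SD, n = 3 each), on 18, 48, 417 and 290 reads. The SAM-treated libraries also carry their own run of library numbers, whose part in the difference was not tested.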

How the results depend on the processing

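With single libraries left out in turn, the number of the 10 genes called ranged from 5 to 7 in TGFβ against control (8 with all libraries), 5 to 6 in SAM against control, 4 to 7 in TGFβ+SAM against TGFβ, 6 to 8 in TGFβ+NAM against NAM, 5 to 6 in TGFβ+SAM against SAM and 7 to 8 in TGFβ+SAM against control. It was 0 to 1 in the interaction of SAM with TGFβ, and 0 in both NAM comparisons and the interaction of NAM with TGFβ. Without SAM replicates 2 and 3 it was 2 in SAM against control (Ccl2 and Cxcl10) and 0 in the interaction. No log2 change of a called gene turned its sign under any alternative run. Of 1449 recomputed values of the 10 genes, 1384 stayed on their side of the threshold, 54 lost a call and 11 gained one.

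Over all genes, NAM against control gave 1 call among 13469 genes, against 16 among 1582 in DESeq2 and 15 among 22796 without a filter. TGFβ+NAM against TGFβ gave 11, against 36 among 6444 genes in DESeq2 and 32 without a filter. It gave 0 with only these groups in the fit and as few as 3 with a library left out. Without NAM replicate 3 and TGFβ+NAM replicate 1 it gave 20. SAM against control gave 1591, against 466 without SAM replicates 2 and 3, which also gave 2258 in place of 3824 in TGFβ+SAM against SAM and 63 in place of 193 in the interaction. TGFβ+SAM against TGFβ gave 986, and 630 to 653 without TGFβ replicate 3 or TGFβ+SAM replicates 1 or 2. TGFβ against control gave 1307 higher and 1312 lower genes. Without control replicate 3, for example, it gave 994 and 1081 among 13863 genes.

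Same-numbered libraries showed no large shared deviation: their deviations from group means had a median r of -0.002 to 0.007. Single pairs ranged from -0.1 to 0.07. Such values cannot show whether these libraries shared a day or culture, which the labels do not state. With a replicate block, 9 of the 10 genes were called in TGFβ against control, the added gene being Cxcl16 (adjusted p = 0.0494). Of all 13469 tested genes, 1272 were higher and 1298 lower with this block in that comparison. The number of the 10 genes called was the same in the other comparisons. Depth limits Cxcl12, and Cxcl5 and Ackr3 under TGFβ. Reads were also few for Ccl7 in TGFβ+SAM (48) and SAM (59) and for Ccl5 in SAM (51).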
